A study of Homo sapiens with 2 samples.

Results

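The metallothionein genes examined here are MT2A, MT1E, MT1X, MT1F and MT1G, together with MTF1, which encodes their transcription factor. They were picked out by name, as the isoform rows that carry 1 of these 6 symbols, and the rule uses no measured value. They account for 8 isoform rows and 6 of 26257 gene symbols, and 5 of the 6 reached a mean of 1 FPKM, as did 11688 genes in all. FPKM is a fragment number scaled by transcript length and library size, so that levels of different genes can be set side by side. MT1G was listed at 0 in both libraries, and so has no ratio. In both libraries MT2A and then MT1E were by far the most abundant members. MT1E, MT1X and MT2A had lower values in the library of treated cells, MT1F and MTF1 higher ones, and every one of these differences was under 1.5-fold with overlapping error bounds.

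Poly-A RNA came from HCT-116, an established human colorectal carcinoma line, as 1 untreated control library and 1 library of cells given lysophosphatidic acid (LPA), a signalling phospholipid, at 10 µM over 24 h, following serum starvation. The labels do not say whether the control cells were starved too, so LPA and any such difference cannot be told apart. With 1 library a group there is no replicate check, and no p-value is given. The only error in the table is a lower and an upper FPKM bound for each isoform, whose level is not stated. All 6 epithelial markers checked reached 1 FPKM, and all 6 had log2 ratios of LPA to control FPKM above 0, with a median of 0.23. They ran from EPCAM, at 220 and 223 FPKM, to KRT18, at 442 and 741 FPKM, which was past 1.5-fold with overlapping bounds. Of the 11688 genes with a mean of at least 1 FPKM, 5864 had a log2 ratio above 0 and 1.45% were at least 1.5-fold higher. Whether the higher marker values have a part in the member values was not tested. Of 6 fibroblast markers 1 reached 1 FPKM (COL1A1, at 5.75 FPKM in control and 4.28 FPKM in LPA-treated cells). None of 5 immune and 4 endothelial markers reached 1 FPKM. Depth, estimated from the smallest FPKM steps, was about 16700000 fragments in the control library and 15800000 in the other.

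Metallothioneins are small, cysteine-rich proteins that bind zinc, copper and cadmium through the sulphur of their cysteines. In intestinal epithelium they buffer zinc and are known for their strong induction by metals. MTF1 is a zinc finger transcription factor that senses zinc and binds metal response elements, short motifs in the promoters of metallothionein genes and of the zinc exporter gene SLC30A1.

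The coding sequences of MT2A, the most abundant member, MT1E, the member with the lowest log2 ratio, and MT1G, the member listed at 0, are shown because they differ little while their transcript levels differed greatly. They were read from the GENCODE release 29 transcripts on GRCh38 that match the RefSeq entries in the table, with introns removed. Capitals mark the in-frame cysteine codons. On chromosome 16 the coding parts run from 56608656 to 56609354 on the plus strand for MT2A, from 56625852 to 56626971 on the plus strand for MT1E, and from 56666879 to 56667993 on the minus strand for MT1G.
MT2A: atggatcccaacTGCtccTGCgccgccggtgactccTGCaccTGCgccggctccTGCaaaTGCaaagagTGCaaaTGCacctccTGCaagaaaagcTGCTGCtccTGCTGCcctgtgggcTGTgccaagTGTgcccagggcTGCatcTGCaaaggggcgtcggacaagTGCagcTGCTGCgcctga
MT1E: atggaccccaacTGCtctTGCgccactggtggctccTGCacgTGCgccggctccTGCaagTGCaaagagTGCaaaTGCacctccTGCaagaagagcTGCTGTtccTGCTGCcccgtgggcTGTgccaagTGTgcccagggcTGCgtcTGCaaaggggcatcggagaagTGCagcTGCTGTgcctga
MT1G: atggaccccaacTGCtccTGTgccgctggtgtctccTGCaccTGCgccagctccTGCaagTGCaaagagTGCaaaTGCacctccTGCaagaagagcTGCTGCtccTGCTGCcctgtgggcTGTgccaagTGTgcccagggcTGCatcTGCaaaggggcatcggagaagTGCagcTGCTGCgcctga

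Each of the 5 metallothioneins had 186 coding nt on 3 exons, with 61 codons before the stop, of which 20 (32.8%) encoded cysteine. MT2A and MT1G shared 95.2% of their coding nt, MT2A and MT1E 92.5%, and the most distant pair, MT1X and MT1F, 88.7%. Reads of so similar genes can be split among them by the authors' counting, so the values of single metallothioneins carry an uncertainty that was not measured. Of all 25-nt stretches of its transcript, MT2A shared 8.79% with another metallothionein of chromosome 16, MT1E 20.7%, MT1X 21.1%, MT1F 10.5% and MT1G 36.9%. At 75 nt the shared part was 0% for MT2A and MT1F, 0.794% for MT1E, 5.85% for MT1X and 6.63% for MT1G. The labels and the table give no read length. The GENCODE transcripts can be longer than the deposited isoforms, as for MT2A with 786 against 419 nt. The excess was unequal: MT1F had 690 against 441 nt, MT1E 704 against 507, MT1X 450 against 404 and MT1G 406 against 402. Shares over the deposited isoforms were not computed, and the order of the genes could differ there.

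**Figure D1:**
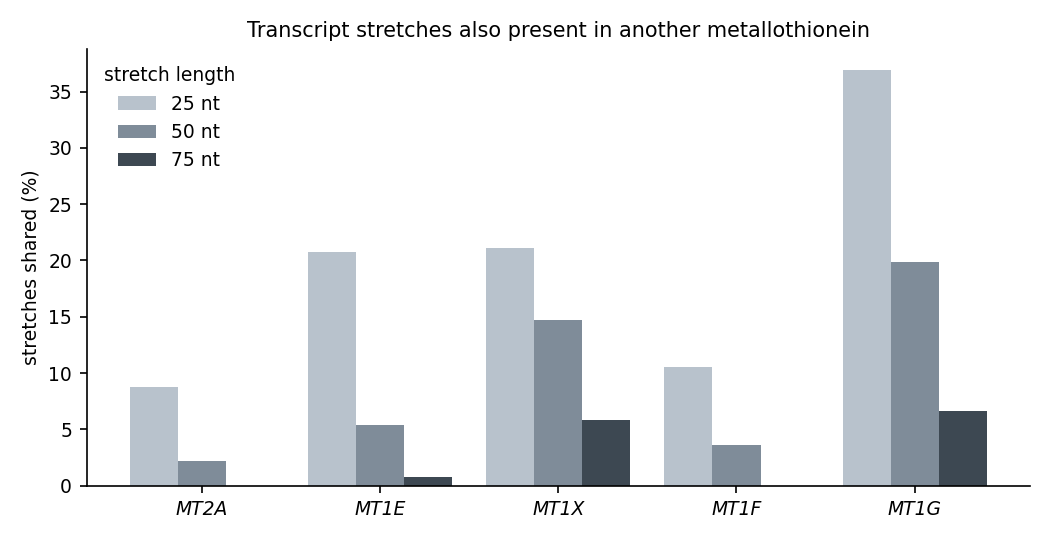
Share of all stretches of 25, 50 or 75 nt (bars, in percent) of each metallothionein transcript that also occur in a transcript of another metallothionein gene on chromosome 16. MT1G has the highest bars at each length, and MT2A and MT1F share no stretch of 75 nt. Shares are over GENCODE transcripts, which exceed the deposited isoforms by unequal lengths.

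Promoter windows are shown for the 3 of 6 members in the RefSeq table (build GRCh38.p14): MT2A, MT1X and MTF1. Each holds the 250 bases before the RefSeq start site, 5′ to 3′ on the gene's own strand, and capitals mark the letters of the metal response element core, TGCACNC or TGCGCNC, on either strand. The windows are chr16:56608334-56608583 on the plus strand for MT2A, chr16:56682220-56682469 on the plus strand for MT1X and chr1:37859593-37859842 on the minus strand for MTF1. The deposited loci of MT2A and MTF1 start further upstream than these start sites. The last 18 bases of the MT2A window and the last 28 of the MTF1 window therefore lie inside them. No base of the MT1X window lies inside its deposited locus.
MT2A: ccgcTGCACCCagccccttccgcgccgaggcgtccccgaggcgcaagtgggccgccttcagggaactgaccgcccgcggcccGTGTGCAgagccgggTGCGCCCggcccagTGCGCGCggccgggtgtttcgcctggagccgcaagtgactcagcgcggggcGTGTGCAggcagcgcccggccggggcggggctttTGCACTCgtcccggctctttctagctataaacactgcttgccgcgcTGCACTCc
MT1X: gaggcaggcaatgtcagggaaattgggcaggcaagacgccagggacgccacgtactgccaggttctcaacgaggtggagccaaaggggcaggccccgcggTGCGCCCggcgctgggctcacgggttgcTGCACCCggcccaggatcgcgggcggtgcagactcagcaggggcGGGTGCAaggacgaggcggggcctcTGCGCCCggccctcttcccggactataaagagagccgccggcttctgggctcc
MTF1: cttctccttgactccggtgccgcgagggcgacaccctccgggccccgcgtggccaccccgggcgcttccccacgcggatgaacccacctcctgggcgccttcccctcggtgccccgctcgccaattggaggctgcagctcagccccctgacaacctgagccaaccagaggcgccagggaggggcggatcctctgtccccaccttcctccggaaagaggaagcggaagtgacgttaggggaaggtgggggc

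The MT2A window held 7 matches, 5 on the gene's strand and 2 on the other, and the MT1X window held 4. The MT2A match nearest the start site, at bases -8 to -2, lies inside the deposited locus. None of the matches in these windows overlapped. Among all 35116 RefSeq promoter windows of this length, 24.8% held at least 1 match, 0.370% at least 4 and 0.0313% at least 7. The MTF1 window held none. The window of MT1H, a metallothionein gene listed at 0 in both libraries, held 8 matches, and that of SLC30A1 held 1. The matches are letters in a window and were not measured as binding sites.

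MT2A, the main metallothionein of many human cells (chromosome 16, 56608566 to 56609497), had 783.8 FPKM in the control library, with bounds of 569.9 and 997.8, and 716.2 FPKM in the LPA library, with bounds of 520.9 and 911.4. The LPA value was the lower one, by 1.09-fold, and the bounds overlapped over most of their width. Its rank among all symbols was 130 without and 138 with LPA. MT1E (56625673 to 56627113) had 255 FPKM in control cells (bounds 185 and 325) and 177 FPKM in LPA-treated cells (bounds 127 and 226). This was the widest gap among the metallothioneins, 1.44-fold lower in the LPA library. That value lay below the lower control bound, but the bounds still overlapped. Its rank went from 317 to 479.

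MT1X (56682470 to 56684196) had 44.1 FPKM in control cells (bounds 29.2 and 59.0) and 34.7 FPKM in LPA-treated cells (bounds 22.4 and 47.0). Its LPA value was 1.27-fold lower, inside the control bounds. MT1F (56657943 to 56659303) was the 1 metallothionein of the list with a higher value in the LPA library, at 11.8 FPKM in control cells and 13.1 FPKM in LPA-treated cells. Nearly all of it came from the isoform NM_005949, at 11.8 FPKM (bounds 6.50 and 17.1) and 12.5 FPKM (bounds 6.80 and 18.2). The other isoform, NM_001301272, was listed at 0 in control cells and at 0.628 FPKM in LPA-treated cells, with a lower bound of 0. MT1G (56666735 to 56668065) has 2 isoforms, both listed at 0 with bounds of 0 in both libraries. A listed 0 in this kind of file need not mean absence.

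**Figure D2:**
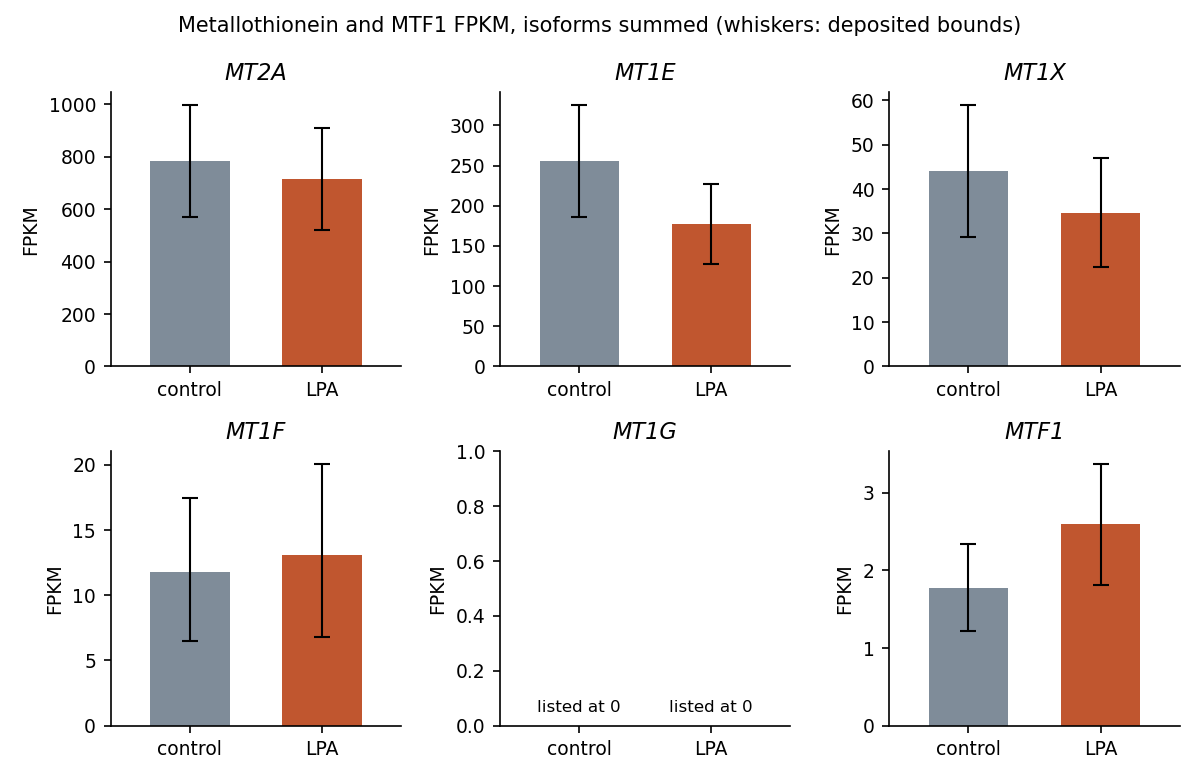
FPKM of each member in the control (grey) and LPA (orange) library, isoforms summed, on a separate linear axis from 0 for each gene, with whiskers from the summed lower to the summed upper deposited bounds. Whiskers of the 2 libraries overlap for all 5 genes with a value, and MT1G is listed at 0 in both.

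The order of levels was the same in both libraries: MT2A, MT1E, MT1X, MT1F, MTF1. The deposited bounds of each gene stood clear of those of the next gene in this order, in both libraries. MT2A was 3.07-fold above MT1E in control cells and 4.05-fold in LPA-treated cells, and MT1E was 5.79-fold and 5.10-fold above MT1X. MT2A alone made up 71.6% of the FPKM of the listed metallothioneins in control cells and 76.1% in LPA-treated cells, while the part of MT1E was 23.3% and 18.8%. MT1X held 4.03% and 3.69%, and MT1F 1.08% and 1.39%. The 2 lowest detected genes therefore hardly weigh in the total.

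Summed over the listed metallothioneins, the level was 1095 FPKM in control cells and 940.9 FPKM in LPA-treated cells, a log2 ratio of -0.22. Without MT2A the sum was 311 and 225 FPKM, a log2 ratio of -0.47, and without MT1E the log2 ratio of the sum was -0.14. The difference between the libraries thus lay mostly in MT2A and MT1E, which were lower by about 67.7 and 78.4 FPKM. Both gaps are smaller than the width of the deposited bounds.

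MTF1 (chromosome 1, 37809567 to 37859620), a single isoform of 7972 nt, was among the lower measured genes, at rank 10582 of all symbols without LPA and 9626 with it. It had 1.78 FPKM in control cells (bounds 1.22 and 2.34) and 2.59 FPKM in LPA-treated cells (bounds 1.82 and 3.37). The LPA value was 1.46-fold higher and lay above the upper control bound, but the bounds overlapped. By its length these levels correspond to about 237 and 326 fragments. For these the exact 95% binomial interval of the ratio was 1.23 to 1.73, covering counting error only. No such interval was computed for the metallothioneins. MT1E, by the same estimate, had about 2163 fragments without LPA and 1414 with it. The interval therefore does not mark the difference in MTF1 as better supported than that in MT1E. The level of MT2A was 441-fold that of MTF1 in control cells and 276-fold in LPA-treated cells. The transcription factor was thus the member with the highest ratio. In the LPA library 3 of the 4 listed metallothioneins with a value were lower, as were 49.8% of all measured genes. How MTF1 protein or its zinc load differed was not measured.

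On a common scale, log2((LPA FPKM + 1)/(control FPKM + 1)), MT1E stood at -0.53, MT1X at -0.34, MT2A at -0.13, MT1F at 0.14 and MTF1 at 0.37. The pseudocount of 1 matters most for MTF1, whose log2 ratio was 0.52 with a pseudocount of 0.1 and 0.16 with 5. With the same 2 pseudocounts MT1F had 0.15 and 0.11, and MT1X -0.34 and -0.31. No member was 2-fold apart, compared with 0.556% of the 11688 measured genes. None was 1.5-fold higher or 1.5-fold lower either, compared with 1.45% and 1.54% of all measured genes. With shares this low, a count of 0 among 5 measured members is not a result about them. None of the 5 member isoforms at a mean of 1 FPKM or more had separate bounds, compared with 4.61% of 16999 isoforms.

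The 4 measured metallothioneins had a median log2 ratio of -0.23, with 3 of 4 below 0. Without MT1E their median was -0.13. The median of all measured genes was 0.00091, and 49.8% were below 0. With only 4 genes, which can share reads, the count of 3 is not a result about them. The ratio of MT1E was at percentile 2.32 of all measured genes, that of MT1X at 9.25, MT2A at 30.0, MT1F at 73.4 and MTF1 at 94.2. Transcripts as short as these scattered more widely: over the 136 measured genes whose leading isoform has 350 to 550 nt, 95% of log2 ratios lay between -0.81 and 0.72, and 8.82% were at or below that of MT1E. Over all measured genes the same range was -0.51 to 0.49. MT1E thus lay just outside the range of all genes and inside that of short transcripts. The short transcripts were matched on length only and could have a mean as low as 1 FPKM, against 216 FPKM for MT1E. Scatter among short transcripts of similar level was not computed, so this range does not show whether the ratio of MT1E is usual at its level.

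**Figure D3:**
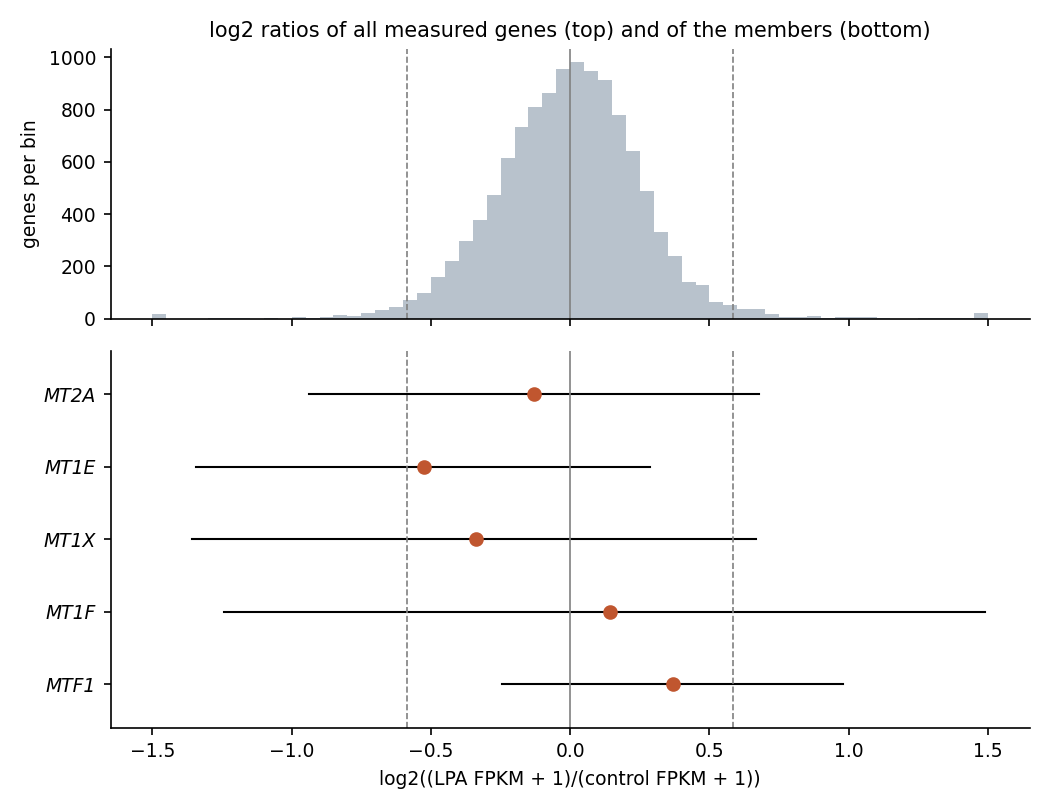
Top, number of measured genes per bin of log2 ratio, with values beyond 1.5 in size put in the outermost bins; bottom, the log2 ratio of each member (points), with lines spanning the ratios that the deposited bounds allow. Dashed lines mark 1.5-fold; all 5 points lie between them and all 5 lines cross 0.

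All listed metallothioneins lie in a single cluster on chromosome 16, in which the table holds 15 metallothionein symbols over 119 kb. Besides MT2A, MT1E, MT1F and MT1X, only MT1DP, a transcribed pseudogene 35.1 kb downstream of the MT2A start, had a value above 0, at 2.23 FPKM in control cells and 2.87 FPKM in LPA-treated cells. The remaining 10 were listed at 0 in both libraries. They include MT3 and MT4, metallothioneins known from brain and stratified epithelium, as well as MT1A, MT1B, MT1H and MT1M. Detected and undetected genes alternated along the cluster: MT1M, MT1JP and MT1A, all at 0, lie between MT1E and MT1DP, and MT1G, MT1H and MT1IP between MT1F and MT1X. Whether fragments of these copies were assigned to a neighbour was not tested.

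**Figure D4:**
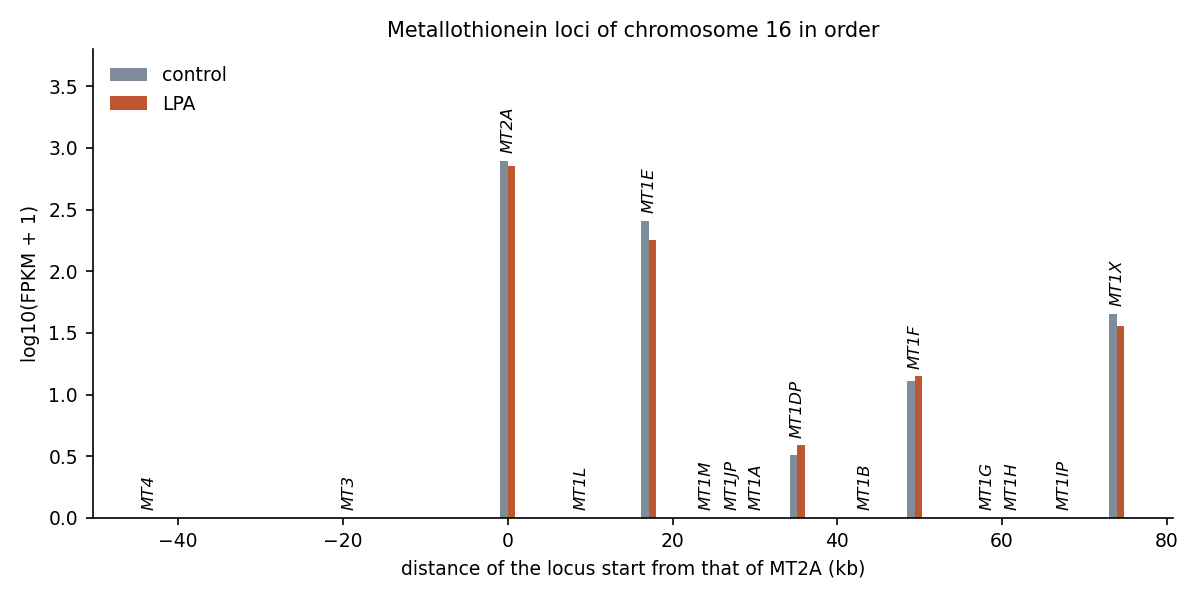
Level of each metallothionein locus of chromosome 16, as log10(FPKM + 1), in the control (grey) and LPA (orange) library, placed by the distance of its start from that of MT2A in kb. Bars are seen at 5 of 15 loci, tallest at MT2A and MT1E and lowest at MT1DP.

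Genes that move zinc across membranes were compared as 2 lists, neither of which had a member 1.5-fold apart on the log2(FPKM + 1) scale. Over all measured genes 1.45% were 1.5-fold higher and 1.54% lower on this scale. At these shares such counts of 0, here and in the lists below, are not a result about the genes. Of the SLC30 exporters, most of which carry zinc out of the cytosol, 6 of 10 were measured, 3 above and 3 below 0, with a median log2 ratio of -0.02. SLC30A1, the exporter gene known to be controlled by MTF1, was the lowest, with 2.11 FPKM in control cells (bounds 1.21 and 3.0) and 1.39 FPKM in LPA-treated cells (bounds 0.716 and 2.05), a log2 ratio of -0.38. By plain FPKM it was 1.52-fold lower, past 1.5-fold. Its LPA value was the lower one, as for MT2A, MT1E and MT1X, while MT1F and MTF1 had higher values. The bounds of SLC30A1 overlapped, and whether MTF1 has a part in its values was not tested. The most abundant exporter gene was SLC30A9, at 15.2 and 11.6 FPKM. The highest ratio was that of SLC30A6, a gene of 5 isoforms, at 4.45 and 5.29 FPKM (log2 ratio 0.21). Its leading isoform had 0.00048 FPKM in control cells and 4.66 FPKM in LPA-treated cells with separate bounds, so the split among its isoforms differed far more than the gene's sum.

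Of the SLC39 importers, which carry zinc into the cytosol, 11 of 14 were measured, 8 above and 3 below 0, with a median log2 ratio of 0.15. SLC39A14 had the highest ratio, 0.51, with 15.2 FPKM in control cells and 22.1 FPKM in LPA-treated cells, and overlapping bounds. SLC39A8 had the lowest, -0.33, at 9.01 and 6.94 FPKM. SLC39A7, an importer of the endoplasmic reticulum and Golgi, had the highest level, at 83.1 and 101 FPKM.

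Copper handling genes, 10 of 13 measured, had a median log2 ratio of 0.07, with 7 above and 3 below 0 and none 1.5-fold apart on the log2(FPKM + 1) scale. COX11, a copper chaperone of cytochrome oxidase, was lowest (32.8 and 22.3 FPKM, log2 ratio -0.54), and the low-affinity transporter gene SLC31A2 was highest (2.88 and 4.36 FPKM, log2 ratio 0.47, or 1.52-fold by plain FPKM with overlapping bounds). SOD1, the copper and zinc superoxide dismutase, had the highest level, at 567 and 546 FPKM. Genes of the cadmium and oxidant response, all 9 measured, had a median of 0.22, with 7 above 0. On the log2(FPKM + 1) scale SLC7A11, a cystine transporter gene, was the 1 gene of this list past 1.5-fold, with a log2 ratio of 0.71 and separate bounds. Over all measured genes 1.45% were 1.5-fold higher, and 4.61% of isoforms had separate bounds. By plain FPKM HSPA1A, a heat shock gene that shares reads with its near-identical copy HSPA1B, was also past 1.5-fold, at 1.37 and 2.25 FPKM (1.65-fold, bounds overlapping). NQO1 was the lowest and the most abundant of them, at 129 and 108 FPKM. HMOX1, another gene known to respond to cadmium, had 21.7 and 22.9 FPKM.

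Glucocorticoids are known inducers of MT2A. The receptor gene NR3C1 and its targets, 6 of 8 measured, had a median log2 ratio of -0.04, with 3 above and 3 below 0. They ran from PER1 (17.2 and 14.8 FPKM, also the most abundant) to TSC22D3 (9.65 and 11.3 FPKM), and none was 1.5-fold apart. Partners and carriers of MTF1, all 4 measured, had a median of 0.15. SP1, a general transcription factor, was highest at 10.8 and 13.3 FPKM, the coactivator gene EP300 lowest at 3.11 and 2.77 FPKM, and the nuclear import gene KPNB1 most abundant at 51.2 and 59.3 FPKM.

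**Figure D5:**
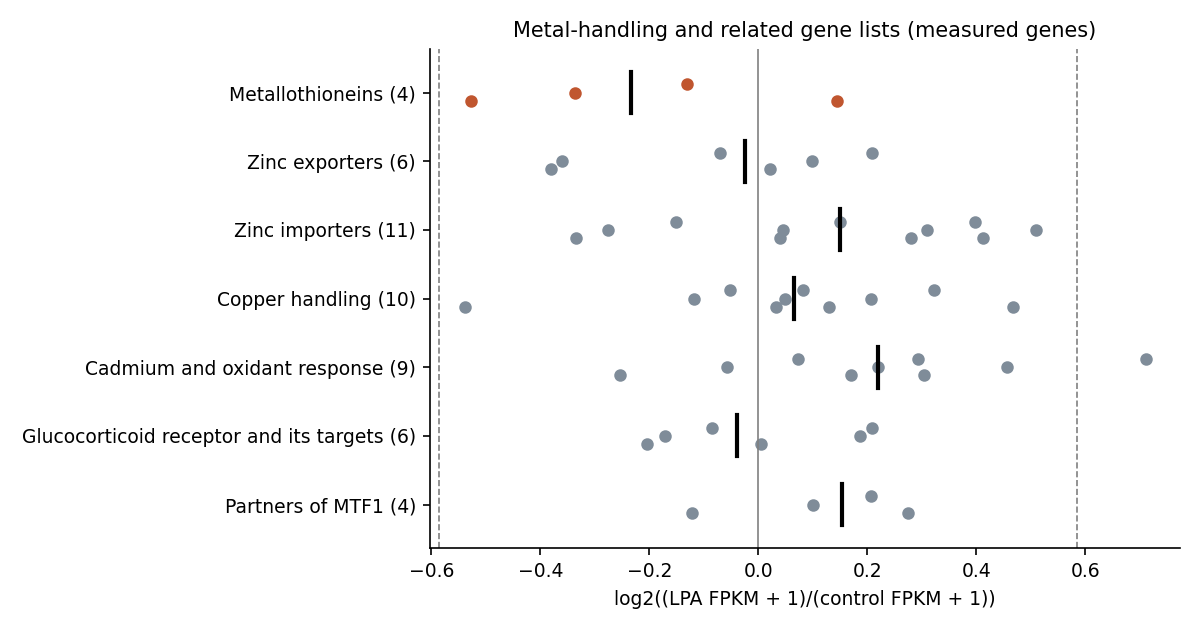
log2 ratios of the measured genes of each list (points, spread vertically for sight only), with the number measured in parentheses and the list median as a black bar; dashed lines mark 1.5-fold. The metallothionein median lies at -0.23, the lowest of the 7, and SLC7A11 at 0.71 is the 1 point past a dashed line.

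The genes nearest to MT2A in level over both libraries were NDUFS5 (760 and 700.1 FPKM), TMSB4X (757 and 694 FPKM) and HINT1 (817 and 691 FPKM), at Euclidean distances of 0.056 to 0.079 on the log2(FPKM + 1) scale. The genes nearest to MTF1 were TANC2 (1.76 and 2.52 FPKM), ZNF767P (1.72 and 2.57 FPKM) and LOC103091866 (1.71 and 2.62 FPKM), at distances of 0.028 to 0.035. With 2 libraries such likeness is one of level only.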

How the data were processed

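Poly-A RNA of 1 control and 1 LPA library was analysed, with groups taken from the sample titles. RNA was extracted with Trizol and prepared with a TruSeq V2 kit, per the labels' protocols. TopHat2 2.0.12, Cuffdiff 2.2.0, Cufflinks, bcl2fastq 2.16.0.10 and the hg38 build are named in the submitters' processing notes; no source used here gives their settings or the scaling between libraries. Per the file headers, the authors deposited FPKM with bounds and a status for each isoform. Of 63236 isoforms, 16 with status HIDATA in the LPA library were treated as missing; all member isoforms had status OK.

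Isoform FPKM were summed per symbol (Python 3.11.15, pandas 2.3.3). Genes with a mean of at least 1 FPKM were called measured, and log2 ratios used a pseudocount of 1, which understates differences of low genes. Loci are written with 1-based starts. The FPKM worth of 1 fragment was taken from single-isoform genes over 2000 nt. The ratio code was tested on simulated data. Members, lists and rules were chosen with earlier results of these data known. Named genes were all members and, per list, those past 1.5-fold, the highest and lowest ratio, the most abundant, SLC30A1, and the 3 genes nearest to MT2A and to MTF1; HMOX1, HSPA1A, the marker genes and undetected cluster genes were added afterwards.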

Additional observations from a re-analysis of the deposited data

How the results depend on the processing

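No paired analysis was possible because each group has 1 library, and for the same reason no replicate could be left out. Recomputed with pseudocounts of 0.1 and 5, without a filter or with a mean of at least 5 FPKM, with the leading isoform for the gene, centred on the median of all measured genes, without isoforms of class code j or under 300 nt, and, added after seeing the data, with HIDATA isoforms at 0, each member's log2 ratio kept its sign. With a mean of at least 5 FPKM, MTF1 had no value. A pseudocount cannot change a sign, and a filter only drops genes. No member isoform had class code j, status HIDATA or a length under 300 nt, so those settings could not change a member value. For all these settings the kept sign was fixed in advance and is no check of the direction. MT1E ranged from -0.53 to -0.52, MT1X from -0.34 to -0.31, MT2A stayed at -0.13, MT1F ranged from 0.08 (leading isoform) to 0.15, and MTF1 from 0.16 to 0.52. No member passed 1.5-fold or 2-fold under any of these 9 alternatives, and no member isoform had separate bounds at a mean of at least 5 FPKM. The metallothionein median ranged from -0.24 to -0.13, the latter after seeing the data, without MT1E or with MT1DP added, and the sum from -0.47 (without MT2A) to -0.14 (without MT1E). For the sum the deposited bounds allow -1.05 to 0.61, a wider range than that of these settings. Among the members with a value, MT1F had the fewest estimated fragments, and MT1F and MT1X had the widest relative bounds. The lack of replicates limits every comparison.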

Other observations

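The measured genes within 500 kb of the metallothionein cluster were looked at after the member values were seen. Of 8 such neighbours 5 had a log2 ratio above 0 and 3 below, with a median of 0.08. Over all measured genes 49.8% were below 0, so this count is not a result about the neighbours. Within the cluster, MT1F and MT1DP were above 0 as well, at 0.14 and 0.26. HERPUD1, a gene of the endoplasmic reticulum stress response, was the highest at 16.8 FPKM without and 26.0 FPKM with LPA (log2 ratio 0.60), and NUP93, a nuclear pore gene next to the cluster, had 19.0 and 27.1 FPKM (log2 ratio 0.49). BBS2, on the other side, had 6.69 and 6.81 FPKM, and CPNE2 was the lowest with a log2 ratio of -0.12. With 1 library a group these are values of these libraries only.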
